A study of Mus musculus with 12 samples.

Results

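Forkhead transcription factors, named Fox and a class letter, share a winged-helix DNA-binding domain. They were measured here in mouse embryonic stem cells that had or had not received retinoic acid (RA) and that carried a short hairpin against LOXL2 or a control hairpin. The family was taken as every gene whose symbol is Fox, a class letter from a to s and a number, and for which the array's annotation gives a transcript cluster of its own. A transcript cluster is the set of probes read as 1 value. The rule found 45 genes among the 22180 named genes of the array, 43 of them protein-coding. Foxd2os and Foxl2os are opposite-strand long noncoding RNAs that the symbols also matched. The 45 genes had 49 of the 41345 clusters. Foxe1, Foxj2, Foxo1 and Foxq1 had more than 1, and the brightest over the 12 arrays stood for each of these. A further 2 clusters with forkhead probes, 1 of Foxb1 and 1 of Foxp3, were annotated to other genes as well and were left out.

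The 12 arrays form 4 groups of 3, all of the E14 mouse embryonic stem cell line after transduction of a short-hairpin construct. They are shLOXL2 cells with RA on day 1, shLOXL2 cells without RA on day 0, shCT cells with RA on day 1 and shCT cells without RA on day 0. shLOXL2 is the hairpin against LOXL2, a lysyl oxidase-like protein, and shCT the control hairpin. No group was kept for 1 day without RA, so RA and a day of culture cannot be told apart. The labels do not state separate cultures for the arrays of 1 group. The p-values therefore measure a spread between arrays that may be technical.

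Forkhead factors bind related DNA sites, and several of them, FOXA1 and FOXA2 foremost, can bind sites within compact chromatin and are called pioneer factors. FOXD3 is needed to maintain mouse embryonic stem cells. FOXO factors are driven out of the nucleus when phosphorylated by AKT or SGK kinases. FOXH1 brings SMAD proteins to DNA in Nodal signalling, FOXM1 activates genes of mitosis, and FOXJ1 activates genes of motile cilia. RA binds nuclear receptors and induces differentiation of embryonic stem cells.

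The median log2 signal of an array was 4.58 at the lowest and 4.68 at the highest, and correlations between arrays ran from 0.939 to 0.985. The targeted gene Loxl2 was read by 2 clusters that the annotation also assigns to Gm21451. Averaged over both RA states they stood at 60.0% and 65.0% in shLOXL2 cells relative to shCT cells, a log2 difference of -0.74 ± 0.140 and -0.62 ± 0.158 (SE), with limma adjusted p of 0.28 and 0.543 over all clusters. With RA they stood at 53.4% and 47.2%, and without RA at 67.5% and 89.6%, where the second cluster differed by -0.16 ± 0.224. All 10 markers of mouse embryonic stem cells that were listed lay above the array median on every array. The share of all genes that did so was not counted. The main axis of variation within groups held 49.4% of the within-group variance, and 1 array of each group stood apart at its upper end: replicate 1 of both shLOXL2 groups and replicate 3 of both shCT groups. Their loadings ran from 0.27 to 0.44. Replicate 1 of shCT without RA lay farther out at the other end, at -0.50, and replicate 3 of shLOXL2 without RA at -0.27. Over the 12 arrays, the deviation from the group mean correlated with this axis at 0.93 for Foxn2, 0.88 for Foxp1 and 0.83 for Foxo3, against -0.94 for Foxd2, -0.93 for Foxa3 and -0.86 for Foxa2. These correlations describe 12 arrays whose axis was built from all genes, forkhead genes included. What the axis stands for was not tested.

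Signals are log2 values, and each level below is that of 1 gene's probes, so levels are compared between samples and not between genes. The signals of 31 forkhead genes lay above the array median on all 12 arrays. Foxd1, Foxd2os, Foxf2, Foxl2os and Foxp2 lay below it on all 12. Foxb1, Foxc1, Foxd2, Foxd4, Foxj1, Foxl1, Foxn1, Foxp3 and Foxs1 lay on both sides of it. That median is taken over all clusters, unnamed ones included, and the share of all genes above it was not counted.

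With RA, Foxa1 rose and Foxd3 fell in both constructs, and Foxp1 rose in both. A gene is called when the limma p-value, adjusted by the Benjamini-Hochberg method over all 22180 genes, is under 0.05. In shLOXL2 cells 4 of the 45 were called, with Foxa1 and Foxp1 higher, beside 2.05% of all genes, and Foxd3 and Foxp4 lower, beside 1.41%. That is 8.89% in either direction, beside 3.46% of all genes. With a block for each construct and replicate number, an alternative added after seeing the data, 6 were called and Foxn4 and Foxq1 joined them, while the calls over all genes went up to 1624, against 768 without the block. In shCT cells 4 were called as well, with Foxa1, Foxn4 and Foxp1 higher, beside 2.16% of all genes, and Foxd3 lower, beside 2.09%. In either direction 4.25% of all genes were called. With the block for each construct and number 7 were called in shCT cells, as Foxn3, Foxp4 and Foxq1 joined. The calls over all genes then went up to 1800, against 943 without the block. Averaged over both constructs 10 were called, with 5 higher (Foxa1, Foxp1, Foxq1, Foxn4 and Foxo3), beside 5.52% of all genes, and 5 lower (Foxd3, Foxp4, Foxr2, Foxn3 and Foxo1), beside 4.8%. That is 22.2% of the 45, beside 10.3% of all genes. All 10 were among the 31 members at or above the median gene, and 16.6% of all genes at or above it were called. The median change of the 45 was 0.05, beside -0.0068 for all genes.

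**Figure D1:**
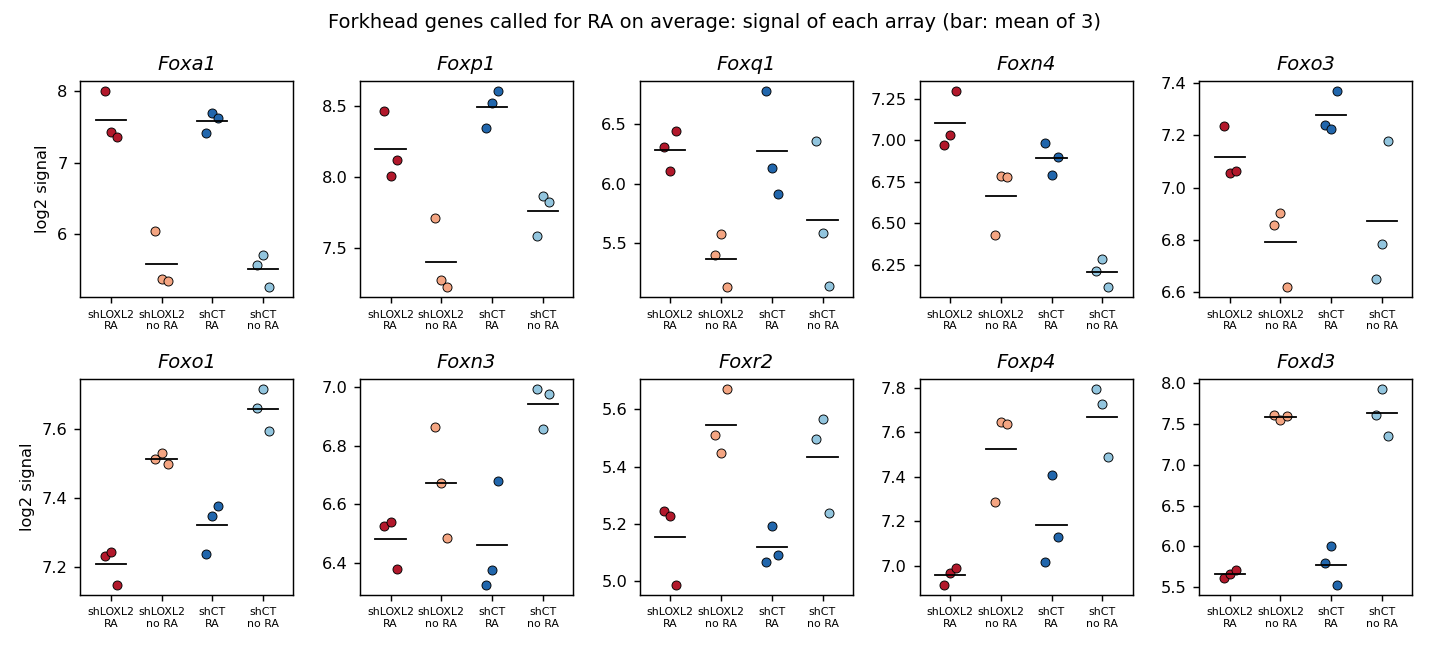
Log2 signal of every array for the 10 forkhead genes called for RA on average, 1 panel per gene with its own vertical scale. The horizontal axis gives the group, each point is 1 array and the bar is the mean of 3. The RA arrays of Foxa1 and Foxd3 are separated from those without RA in both constructs, while those of Foxq1 overlap in shCT cells and those of Foxn3 in shLOXL2 cells.

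Foxa1 and Foxd3 had the largest changes of the family. Foxa1 gave 8.00, 7.42 and 7.36 with RA in shLOXL2 cells, against 6.04, 5.37 and 5.34 without RA. In shCT cells it gave 7.41, 7.69 and 7.63 with RA, against 5.57, 5.70 and 5.26 without RA. The lowest RA array was above the highest array without RA in each construct. Averaged over constructs, Foxa1 rose 4.11-fold, by 2.04 ± 0.150 on the log2 scale (SE, n = 3 arrays per group), with a limma adjusted p of 1.34e-06. Foxd3 gave 5.61, 5.66 and 5.71 with RA in shLOXL2 cells, against 7.61, 7.55 and 7.60 without RA. Its shCT arrays gave 5.80, 6.001 and 5.53 with RA, against 7.61, 7.94 and 7.36 without RA. The groups did not overlap in either construct. Foxd3 signal with RA averaged 0.269 of that without RA, a log2 change of -1.89 ± 0.110 with a limma adjusted p of 1.56e-07.

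The other members of both classes did not pass the test. Foxa2, a second pioneer factor of endoderm and floor plate, gave 5.67, 6.12 and 5.90 with RA in shLOXL2 cells, against 5.85, 5.90 and 5.98 without RA. The values in shCT cells were 6.29, 6.09 and 5.71 with RA, against 6.35, 5.70 and 5.62 without RA. The groups overlapped in both constructs, and the change on average was 0.06 with a 95% interval from -0.24 to 0.37 (limma adjusted p = 0.854). Its sign turned when single arrays were left out, with a range of -0.0045 to 0.18 on average, the lowest without replicate 3 of shCT without RA. Foxa3, the third member of the class, changed by -0.16 (adjusted p = 0.673). Foxd4, Foxd2 and Foxd1 changed by -0.24, -0.01 and 0.05, and the opposite-strand Foxd2os by 0.15, none of them called.

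The 250 bases before a RefSeq start of Foxa1 and of Foxd3 (build GRCm38.p6) are shown because these genes changed most. Each runs along the gene's own strand, with any match to a searched motif in capitals.
Foxa1, chr12:57546112-57546361, minus strand: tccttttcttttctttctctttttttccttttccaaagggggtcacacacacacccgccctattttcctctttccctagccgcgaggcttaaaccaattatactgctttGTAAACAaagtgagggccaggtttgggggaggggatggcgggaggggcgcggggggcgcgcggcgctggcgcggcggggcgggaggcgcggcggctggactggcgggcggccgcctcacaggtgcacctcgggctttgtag
Foxd3, chr4:99656049-99656298, plus strand: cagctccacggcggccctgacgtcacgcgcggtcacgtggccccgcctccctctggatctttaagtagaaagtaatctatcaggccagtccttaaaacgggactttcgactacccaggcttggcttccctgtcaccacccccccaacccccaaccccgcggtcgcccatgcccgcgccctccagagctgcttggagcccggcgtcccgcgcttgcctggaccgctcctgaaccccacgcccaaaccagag
The capitals in Foxa1 mark the reverse complement of the forkhead site TGTTTAC. RefSeq windows of 300 bases, from 250 before a start to 50 after it, were given for 29 of the 45 genes, 34 windows in all. Some, those of Foxa1 and Foxn3 among them, lie wholly inside the gene's annotated span. On either strand TGTTTAC was found in 1 of the 34, that of Foxa1, and in 3.65% of all 32851 windows. The retinoic acid receptor half-site AGGTCA was found in 5 of the 34 (Foxe3, Foxi2, Foxk2, Foxn3 and Foxp3) and in 16.3% of all. Its direct repeats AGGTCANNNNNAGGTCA and AGGTCANNAGGTCA, which contain it, were in 0 of the 34 and each in 0.00913% of all. The median GC content of the 34 windows was 62.8%, beside 52.7% for all. Apart from the spacer bases N only these exact letters were searched, so variants of a site were not counted. A match describes these letters in these windows and shows no binding.

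A list of 15 measured FOXA partners and endoderm genes had 1 member that rose and 1 that fell with RA on average, beside 5.52% and 4.8% of all genes. Its median change was -0.03, beside -0.0068 for all genes. Gata6, an endoderm transcription factor, averaged 8.57 with RA in shLOXL2 cells, against 6.58 without RA, and 8.29 with RA in shCT cells, against 7.02 without RA. It rose by 1.63 ± 0.172 (limma adjusted p = 3.50e-05). Grhl2, a regulator of epithelial genes, fell by 1.59 ± 0.108 (limma adjusted p = 6.43e-07), with 4.94 against 6.55 in shLOXL2 cells and 5.09 against 6.67 in shCT cells, RA first. Of 8 extraembryonic endoderm markers 1 rose with RA, Gata6, beside 5.52% of all genes, and 0 fell. Afp and Ttr lay below the array median on all 12 arrays. The mean log2 signal of the 8 ran from 5.84 to 5.96 with RA in shLOXL2 cells, against 5.43 to 5.57 without RA. In shCT cells it ran from 5.66 to 6.41 with RA, against 5.35 to 6.30 without RA. The part of such cells in the Foxa1 values was not tested. In these bulk samples fewer cells of a type and less RNA per cell cannot be told apart.

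Of 14 measured FOXD3 partners and stem cell genes expressed with it, 7 fell with RA on average and 0 rose, beside 4.8% and 5.52% of all genes, with a median change of -0.35 beside -0.0068 for all genes. Otx2, a homeobox factor of the epiblast, averaged 4.70 with RA in shLOXL2 cells, against 6.08 without RA, and 4.51 with RA in shCT cells, against 6.08 without RA. It fell by 1.48 ± 0.0973 (limma adjusted p = 4.64e-07). Dnmt3b, a DNA methyltransferase, fell by 1.20 ± 0.122 (adjusted p = 2.59e-05), and Pou5f1, which encodes the pluripotency factor OCT4, fell by 0.56 ± 0.0806 (adjusted p = 4.31e-04). The other called members were Utf1, Zfp42, Esrrb and Sox2. Of the 10 stem cell markers, several of which this list shares, 6 fell and 0 rose, beside 4.8% and 5.52% of all genes. Their mean log2 signal ran from 8.64 to 8.82 with RA in shLOXL2 cells, against 9.18 to 9.20 without RA, and from 8.67 to 8.81 with RA in shCT cells, against 9.06 to 9.26 without RA. Their part in the Foxd3 values was not tested. Of 8 fibroblast feeder markers 1 rose with RA, Pdgfrb, beside 5.52% of all genes, and Postn, Dcn and Lum lay below the array median on all arrays. Of 6 trophoblast markers 1 rose, Cdx2, beside the same 5.52%, and Elf5 lay below the array median on all arrays.

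Members of the FOXP class, zinc-finger-containing forkhead repressors, moved in opposite directions. Foxp1, whose splice forms differ between stem cells and differentiated cells, gave 8.46, 8.00 and 8.12 with RA in shLOXL2 cells, against 7.71, 7.28 and 7.23 without RA. In shCT cells it gave 8.34, 8.52 and 8.61 with RA, against 7.58, 7.87 and 7.83 without RA. The RA arrays were above the others in both constructs. Foxp1 rose by 0.76 ± 0.116 on average (limma adjusted p = 7.27e-04), and the transcript cluster does not separate its splice forms. Within shLOXL2 cells the rise was 0.79 (adjusted p = 0.0153). The limma adjusted p became 0.0812 and 0.0789 without their replicates 2 and 3 of day 0, and 0.0709 without replicate 1 of day 1. Within shCT cells the rise was 0.73 (adjusted p = 0.0218). Here the adjusted p became 0.0725 and 0.0552 without replicates 1 and 2 of day 0, and 0.0816 and 0.0926 without replicates 2 and 3 of day 1.

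Foxp4, expressed in developing lung and gut, gave 6.91, 6.97 and 6.99 with RA in shLOXL2 cells, against 7.29, 7.65 and 7.64 without RA. Its shCT arrays gave 7.02, 7.41 and 7.13 with RA, against 7.80, 7.73 and 7.49 without RA. The groups did not overlap in either construct, though replicate 2 of shCT with RA came close to replicate 3 without RA. Foxp4 fell by 0.53 ± 0.102 on average (limma adjusted p = 0.00443). Within shLOXL2 cells its adjusted p was 0.049 and lay between 0.0598 and 0.203 when any of 8 arrays was left out, namely all of that construct but replicate 1 of day 0, and of shCT replicate 2 of day 0 and replicates 1 and 3 of day 1. With the replicate number as a block over all 12 arrays it was 0.0676. A second quantile normalization gave 0.0716, arrays centred on their medians 0.0637 and a fit of only the compared groups 0.0794. Of 23 alternatives 9 kept this call. Within shCT cells the change was -0.49 (adjusted p = 0.0837, or 0.0452 with the block for each construct and number). Foxp2, known from vocal learning, changed by 0.30 (adjusted p = 0.102), and Foxp3, the factor of regulatory T cells, by -0.16 (adjusted p = 0.58).

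FOXO factors, which promote cell cycle arrest and stress resistance, also split. Foxo1 gave 7.23, 7.24 and 7.15 with RA in shLOXL2 cells, against 7.51, 7.53 and 7.50 without RA. The values in shCT cells were 7.24, 7.35 and 7.38 with RA, against 7.66, 7.72 and 7.60 without RA. The groups were apart in both constructs. Foxo1 fell by 0.32 ± 0.0747 on average (limma adjusted p = 0.0134). A second, dimmer Foxo1 cluster changed by 0.02 ± 0.129 (adjusted p = 0.968 over all clusters), and with the mean of both the change was -0.15 (adjusted p = 0.36), so the call rests on the brighter one.

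Foxo3 gave 7.24, 7.06 and 7.06 with RA in shLOXL2 cells, against 6.86, 6.90 and 6.62 without RA. In shCT cells it gave 7.24, 7.22 and 7.37 with RA, against 6.65, 6.78 and 7.18 without RA. The shCT arrays nearly touch, since replicate 3 without RA was at 7.18. Foxo3 rose by 0.37 ± 0.104 on average (limma adjusted p = 0.0382), with an adjusted p between 0.0547 and 0.0987 when any single array was left out other than replicate 3 of shCT without RA (0.00817) or replicate 1 of shLOXL2 without RA (0.0446). It was 0.0699 with the replicate number as a block over all 12 arrays. Within shCT cells the change was 0.41 (adjusted p = 0.162, or 0.0416 without replicate 3 without RA). Foxo4 and Foxo6 changed by 0.06 and -0.05, with 95% intervals of -0.15 to 0.27 and -0.31 to 0.21.

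Of 18 measured kinases and cofactors upstream of FOXO, 2 rose and 3 fell with RA on average, beside 5.52% and 4.8% of all genes. The median change was -0.02, beside -0.0068 for all genes. Sgk1, which phosphorylates FOXO3, averaged 7.15 with RA in shLOXL2 cells, against 8.43 without RA, and 6.80 with RA in shCT cells, against 8.34 without RA. It fell by 1.41 ± 0.0849 (limma adjusted p = 1.95e-07). Pik3r1, a regulatory subunit of PI3 kinase, rose by 0.84 ± 0.126 (adjusted p = 6.13e-04), and Sgk2, a related kinase, fell by 0.40 ± 0.0988 (adjusted p = 0.0178). Sgk3 fell and Crebbp rose as well.

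Of 20 measured FOXO targets 5 rose and 2 fell, beside 5.52% and 4.8% of all genes, with a median change of 0.17, beside -0.0068. Sod2, mitochondrial superoxide dismutase, fell by 0.64 ± 0.0873 (limma adjusted p = 2.98e-04), with a mean of 9.33 with RA in shLOXL2 cells, against 9.88 without RA, and 9.24 with RA in shCT cells, against 9.97 without RA. Sesn1, a stress-induced inhibitor of mTORC1, rose by 0.55 ± 0.0913 (adjusted p = 0.00146), and Klf2, a transcription factor of naive stem cells, fell by 0.76 ± 0.129 (adjusted p = 0.00165). Pink1, Txnip, Insr and Sesn3 rose too. Many of these genes have other regulators, and no measure of FOXO phosphorylation or location was analysed here.

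FOXN members are a mixed class. Foxn4, a factor of retinal and spinal interneuron progenitors, gave 6.97, 7.03 and 7.30 with RA in shLOXL2 cells, against 6.43, 6.78 and 6.78 without RA. Its shCT arrays gave 6.99, 6.79 and 6.90 with RA, against 6.21, 6.29 and 6.11 without RA. The groups did not overlap, and the gap was wider in shCT cells. Foxn4 rose by 0.56 ± 0.0968 on average (limma adjusted p = 0.00186). In shCT cells the rise was 0.69 (adjusted p = 0.011, or 0.0596 without replicate 1 with RA). In shLOXL2 cells it was 0.44 (adjusted p = 0.115, or 0.0499 with the block for each construct and number). The difference between the 2 rises was not called.

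Foxn3, a repressor linked to cell cycle checkpoints, gave 6.53, 6.54 and 6.38 with RA in shLOXL2 cells, against 6.86, 6.67 and 6.49 without RA. The values in shCT cells were 6.33, 6.38 and 6.68 with RA, against 6.99, 6.86 and 6.98 without RA. The groups overlapped in shLOXL2 cells and not in shCT cells. Foxn3 fell by 0.34 ± 0.0961 on average (limma adjusted p = 0.0404). Its adjusted p lay between 0.0607 and 0.103 when any single array was left out other than replicate 3 of shCT with RA (0.0246) or replicate 3 of shLOXL2 without RA (0.0311). With the replicate number as a block over all 12 arrays it was 0.0731. Within shCT cells the change was -0.48 (adjusted p = 0.0674, or 0.0317 with the block for each construct and number). Within shLOXL2 cells it was -0.19 (adjusted p = 0.595, or 0.393 with that block). Foxn1, the thymic epithelial factor mutated in nude mice, and Foxn2 changed by 0.02 and 0.06.

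Foxq1, an epithelial and hair follicle factor, gave 6.31, 6.11 and 6.44 with RA in shLOXL2 cells, against 5.40, 5.58 and 5.13 without RA. In shCT cells it gave 6.78, 6.13 and 5.91 with RA, against 6.36, 5.59 and 5.13 without RA. The groups were apart in shLOXL2 cells and overlapped in shCT cells. Foxq1 rose by 0.75 ± 0.195 on average (limma adjusted p = 0.0252). Leaving out single shCT arrays gave an adjusted p of 0.0642 for replicate 2 without RA and 0.0642 for replicate 1 with RA. Leaving out single shLOXL2 arrays gave 0.0665 for replicate 3 without RA, and 0.0501 and 0.0655 for replicates 1 and 3 with RA. In shLOXL2 cells the change was 0.92 (adjusted p = 0.102, or 0.0049 with the block for each construct and number, and 0.0276 without replicate 1 of shCT without RA). In shCT cells it was 0.58 (adjusted p = 0.318, or 0.0405 with the same block). A second Foxq1 cluster changed by 0.28 ± 0.122 on average (adjusted p = 0.278 over all clusters).

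Foxr2 gave 5.25, 5.23 and 4.99 with RA in shLOXL2 cells, against 5.51, 5.45 and 5.67 without RA. Its shCT arrays gave 5.07, 5.19 and 5.09 with RA, against 5.50, 5.57 and 5.24 without RA. The groups did not overlap, by a narrow margin in shCT cells. Foxr2, known as an oncogene when activated, fell by 0.35 ± 0.0917 on average (limma adjusted p = 0.0252). Its adjusted p became 0.0717 when shCT replicate 2 without RA was left out, and 0.0618 and 0.0583 for shCT replicates 1 and 3 with RA. Replicate 3 of shLOXL2 gave 0.0673 when left out of the group without RA and 0.0717 when left out of the RA group. Foxr1 changed by -0.25 (adjusted p = 0.156).

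**Figure D2:**
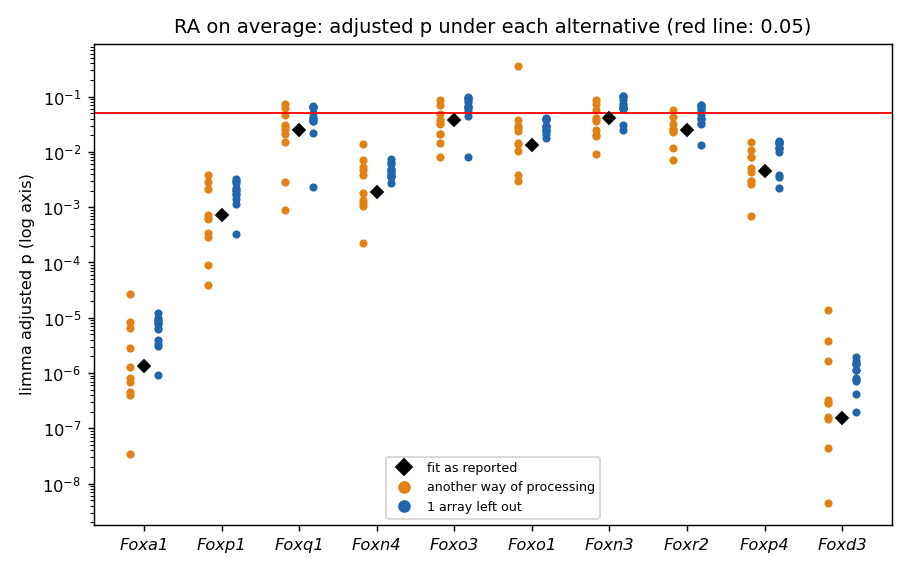
Adjusted p of RA on average (vertical, log axis) for the 10 called forkhead genes (horizontal). Diamonds are the fit as reported, orange points other ways of processing and blue points fits with 1 array left out, and the red line is 0.05. Foxa1, Foxd3, Foxp1, Foxn4 and Foxp4 stay under the line in all of them.

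Signalling and cell cycle members did not pass the test for RA. Foxh1, the SMAD partner, gave 7.33, 7.40 and 7.44 with RA in shLOXL2 cells, against 7.33, 7.87 and 7.77 without RA. The values in shCT cells were 7.16, 7.25 and 6.64 with RA, against 7.83, 7.66 and 6.79 without RA. The groups overlapped, and replicate 3 of shCT was the lowest array in both RA states. Its change on average was -0.34, with a 95% interval of -0.71 to 0.03 (adjusted p = 0.277). Foxh1 was singled out after its values were seen.

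Of 15 measured genes of the Nodal and SMAD pathway 2 rose and 1 fell with RA on average, beside 5.52% and 4.8% of all genes. The median change was 0.09, beside -0.0068. Lefty1, a Nodal antagonist, averaged 8.46 with RA in shLOXL2 cells, against 6.79 without RA, and 8.61 with RA in shCT cells, against 6.48 without RA. It rose by 1.90 ± 0.175 (limma adjusted p = 1.07e-05). Gdf3, a ligand of the same pathway, fell by 0.47 ± 0.118 (adjusted p = 0.0199), and Skil, a SMAD corepressor, rose by 0.86 ± 0.228 (adjusted p = 0.0273).

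Foxm1 changed by -0.02, with a 95% interval of -0.21 to 0.18. Of 15 measured FOXM1 targets 0 were called for RA on average, beside 10.3% of all genes. Their median change was -0.03, beside -0.0068 for all genes, with a range of -0.18 to 0.36. Foxj1 changed by -0.14 (adjusted p = 0.564). Of 15 measured cilium genes 0 rose and 2 fell, beside 5.52% and 4.8% of all genes, with a median change of 0.02. Those that fell were Rfx2, a cilium transcription factor, by 0.69 ± 0.0977 (limma adjusted p = 4.23e-04) and Tekt1, a tektin, by 0.27 ± 0.0798 (adjusted p = 0.0454).

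The remaining members were not called for RA on average. Foxc1 and Foxc2, factors of mesoderm and eye, changed by 0.43 (adjusted p = 0.0758) and 0.15. Foxf1 and Foxf2, of lung and gut mesenchyme, changed by 0.10 and 0.22. Foxk1 and Foxk2, which regulate metabolism and autophagy, changed by -0.18 and 0.09. Foxb1, Foxb2, Foxe1, Foxe3, Foxi1, Foxi2, Foxi3, Foxj2, Foxj3, Foxl1, Foxl2, Foxl2os and Foxs1 lay between -0.11 (Foxl1) and 0.16 (Foxe3).

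The responses of both constructs are set side by side in the plot of RA changes. In shLOXL2 cells all 3 RA arrays lay above the others for 9 forkhead genes and below for 7, beside 10.3% and 9.32% of all genes. In shCT cells the counts were 7 and 5, beside 10.7% and 10.5%. No forkhead gene was called for the difference of the RA responses by limma, beside 0% of all genes, and 5 had an unadjusted p under 0.05, beside 2.94% of all genes. The difference, shLOXL2 minus shCT, was -0.06 (95% interval -0.70 to 0.59) for Foxa1, -0.07 (-0.55 to 0.41) for Foxd3 and 0.06 (-0.44 to 0.56) for Foxp1. The smallest p-values for the difference were those of Foxb1 (-0.64), Foxj1 (-0.63) and Foxd2os (-0.51), each with a limma adjusted p of 1.

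**Figure D3:**
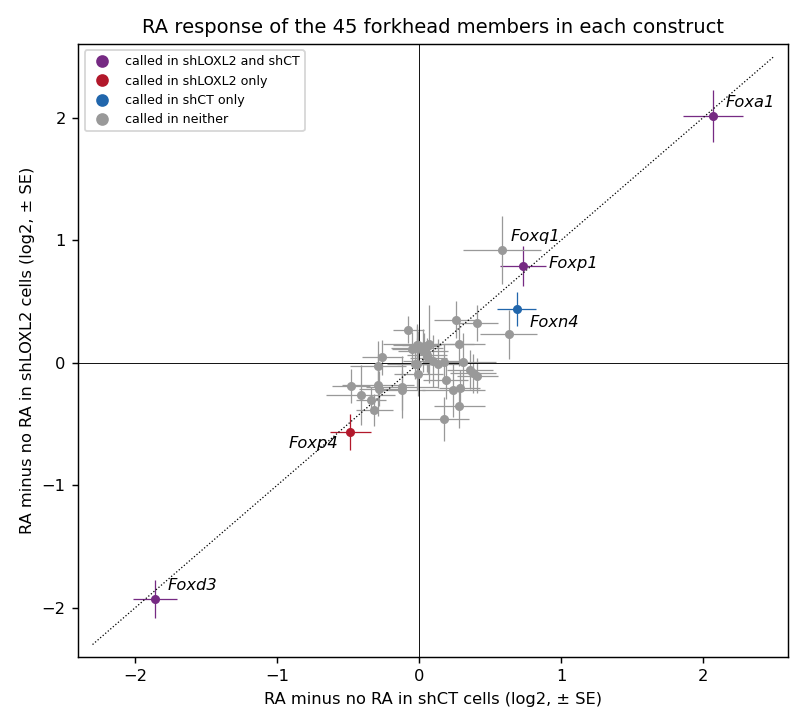
RA change in shLOXL2 cells (vertical) against that in shCT cells (horizontal), both as log2 of RA minus no RA, for the 45 forkhead genes. Bars are the standard errors of the fit, the dotted line marks equal changes and colours give the calls. Foxa1 lies at 2.01 in shLOXL2 cells and 2.07 in shCT cells, and Foxd3 at -1.93 and -1.86.

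LOXL2 knockdown changed no forkhead gene past the threshold. With RA 0 of 45 were called by limma, beside 0% of all genes, without RA 0, beside 0%, and on average over RA states 0, beside 0.0541%. Those with an unadjusted p under 0.05 numbered 3 with RA, beside 4.96% of all genes, 3 without RA, beside 4.68%, and 5 on average, beside 6.72%. With RA the 3 shLOXL2 arrays lay above the 3 shCT arrays for Foxf1 and Foxh1, beside 6.61% of all genes. They lay below for 7 genes, Foxb1, Foxc2, Foxd2os, Foxj1, Foxk2, Foxl2os and Foxp4, beside 5.88%. Without RA they lay above for Foxi1, Foxn1 and Foxn4, beside 4.20%, and below for Foxf1, Foxk2, Foxl1 and Foxo1, beside 4.04%.

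With RA the smallest p-values were those of Foxl2os, Foxj1 and Foxb1. Foxl2os gave 3.43, 3.35 and 3.77 in shLOXL2 cells, against 3.94, 3.93 and 4.32 in shCT cells, a difference of -0.55 ± 0.161 in a signal below every array's median (limma adjusted p = 0.972). Foxj1 gave 4.23, 4.26 and 4.47 in shLOXL2 cells with RA, against 5.01, 4.81 and 4.76 in shCT cells, a difference of -0.54 ± 0.176 (adjusted p = 0.972). Foxb1, a factor of the developing hypothalamus, gave 4.19, 4.07 and 4.50 in shLOXL2 cells with RA, against 4.74, 4.60 and 4.76 in shCT cells, a difference of -0.45 ± 0.178 (adjusted p = 0.972). All 3 lay lower in every shLOXL2 array than in every shCT array. Without RA the same genes overlapped: Foxl2os gave 3.58, 3.69 and 3.54 in shLOXL2 cells, against 3.91, 3.70 and 3.44 in shCT cells. Foxj1 gave 4.50, 4.64 and 5.20 in shLOXL2 cells, against 4.61, 4.92 and 4.54 in shCT cells, and Foxb1 gave 4.88, 4.79 and 4.15 in shLOXL2 cells, against 4.38, 4.41 and 4.47 in shCT cells.

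Without RA the smallest p-values were those of Foxn4, Foxk2 and Foxd2os. Foxn4, whose arrays are given above, differed by 0.46 ± 0.137 (limma adjusted p = 0.806), with every shLOXL2 array above every shCT array. Foxk2 gave 7.54, 7.53 and 7.49 in shLOXL2 cells, against 7.80, 7.72 and 7.77 in shCT cells, a difference of -0.24 ± 0.105 (adjusted p = 1). With RA it gave 7.71, 7.66 and 7.58 in shLOXL2 cells, against 7.73, 7.80 and 7.87 in shCT cells. Its shLOXL2 arrays were lower in both RA states without reaching the threshold in either. Foxd2os gave 3.70, 3.96 and 4.05 in shLOXL2 cells without RA, against 3.37, 3.65 and 3.73 in shCT cells, which overlap, and 3.87, 3.64 and 3.88 with RA, against 3.88, 4.17 and 3.93 in shCT cells.

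Averaged over RA states, the smallest p-values were those of Foxn4 (0.33 ± 0.0968, limma adjusted p = 0.376), Foxp1 (-0.32 ± 0.116, adjusted p = 0.544) and Foxl2os (-0.31 ± 0.114, adjusted p = 0.552). For the genes that RA moved most, the knockdown difference on average was 0.05 (95% interval -0.28 to 0.37) for Foxa1 and -0.08 (-0.32 to 0.16) for Foxd3. The 7 lists of related genes had 0 members called for knockdown in either RA state, on average or for the difference of RA responses, by limma. These intervals are not adjusted for the number of genes, while the calls are. With 3 arrays per group larger differences can go uncalled. The Loxl2 differences of -0.74 and -0.62 on average did not pass the test over all clusters.

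**Figure D4:**
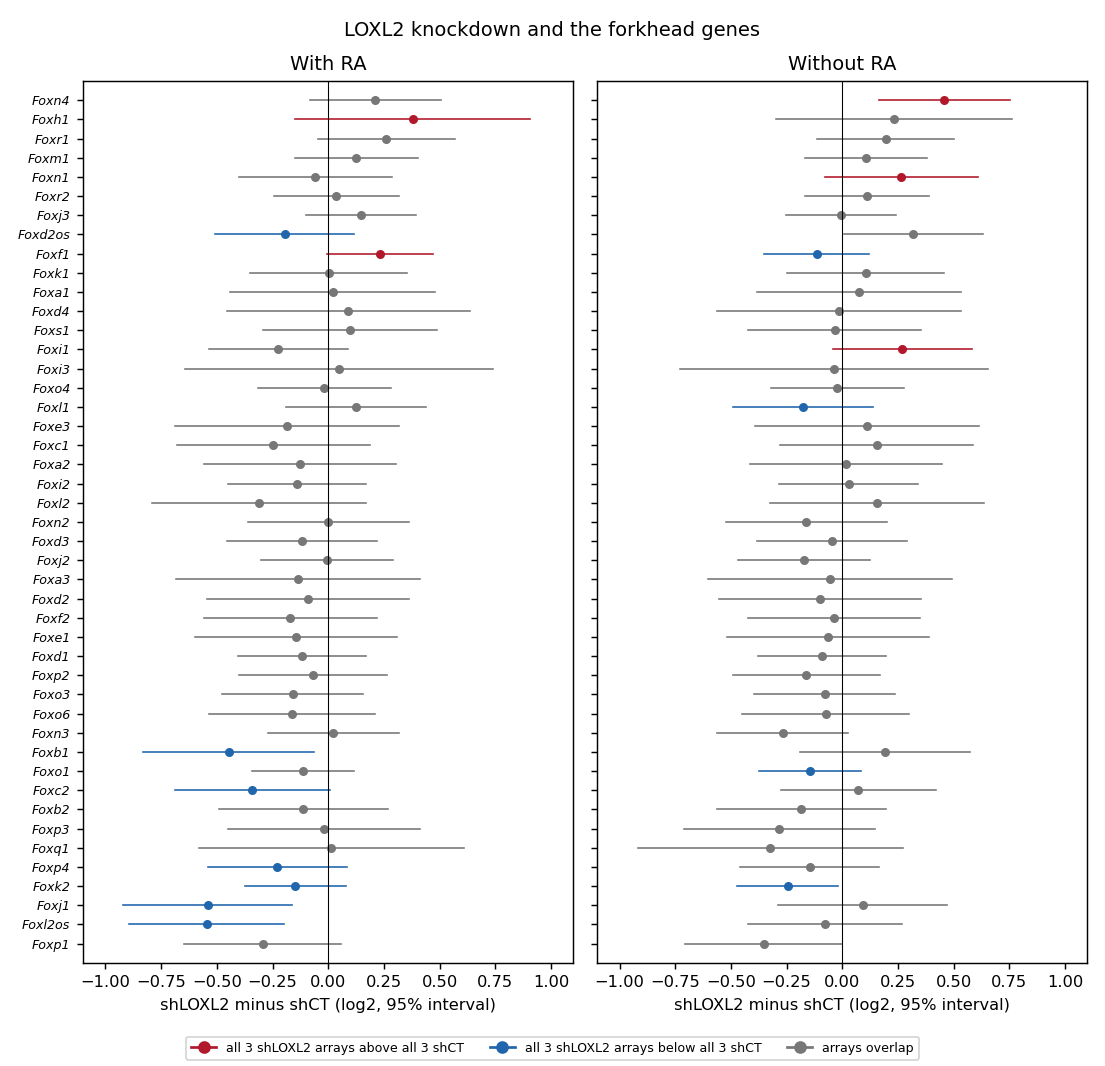
Knockdown difference (shLOXL2 minus shCT, log2, with the 95% interval of the fit) for each of the 45 forkhead genes, with RA on the left and without RA on the right. Red marks genes whose 3 shLOXL2 arrays all lay above the 3 shCT arrays, blue those all below and grey those that overlap. The differences run from -0.55 to 0.38 with RA and from -0.35 to 0.46 without RA, and none was called.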

How the data were processed

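RNA of E14 cells was extracted with Trizol and 100 ng per sample was labelled for an Affymetrix whole-transcript array, per the labels' protocols. The authors deposited 1 log2 signal for each transcript cluster and array. The submitters' processing notes name RMA, limma and R 3.1.1 without saying what each did. Normalization between arrays removes shifts common to most genes. Clusters were named through the platform annotation with symbols updated through RefSeq: of 41345 clusters, 23521 had 1 gene, 1814 several and 16010 were unnamed here. Clusters with several genes or none were left out, and the brightest of a gene's clusters represented it.

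The tests used limma 3.58.1 (R 4.3.3, with statmod 1.5.0) on 22180 genes in 1 fit over all 12 arrays with a mean per group. Benjamini-Hochberg adjustment ran over all genes, and the threshold was 0.05. Errors are standard errors of this fit and intervals cover 95%. The number of arrays, 3 per group, limits the precision. The fit was also run on simulated data with known changes. Its arrays were drawn independently, so it cannot test for the within-group axis or for replicate pairs. Knockdown contrasts were made with RA, without RA and on average, RA contrasts in each construct and on average, and the RA responses were compared with each other.

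Values of every array are given for the forkhead genes called in any contrast, Foxa1, Foxa2 and Foxd3, and the 3 with the smallest p in each contrast without calls. From each related list, up to 3 called members with the smallest p for RA on average have values. Members and lists were chosen with earlier results of these data known. Alternatives changed the variance model, the filter on dim genes, the normalization, the choice of cluster, the genes tested, the groups in the fit, the replicate block and the arrays. Deviations of same-numbered arrays correlated at 0.558, 0.248 and 0.216 between the RA states of shLOXL2 cells. Between those of shCT cells the correlations were 0.363, 0.0394 and 0.631. In each construct replicate 2 with RA correlated best with an array of another number. Whether the numbers mark pairs is thus not settled for either construct. The fit as reported has no block, and values with a block stand beside some results of both constructs.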

Additional observations from a re-analysis of the deposited data

Results flagged for a closer look

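Foxf1, a factor of lung and gut mesenchyme, was the 1 forkhead gene of 45 whose shLOXL2 and shCT arrays did not overlap in either RA state and differed in opposite directions, as did 0.307% of all genes. With RA it gave 5.61, 5.64 and 5.77 in shLOXL2 cells, against 5.53, 5.34 and 5.45 in shCT cells, a difference of 0.23. Without RA it gave 5.38, 5.39 and 5.45 in shLOXL2 cells, against 5.49, 5.57 and 5.50 in shCT cells, a difference of -0.12. The difference between these was 0.35, with an unadjusted limma p of 0.0428 and an adjusted p of 1, so it did not pass the threshold.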

How the results depend on the processing

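Foxa1 and Foxd3 were called for RA in each construct and on average, with the same direction, under every alternative run, and Foxp1, Foxn4 and Foxp4 were for RA on average. Knockdown and the difference of RA responses had 0 forkhead calls under the alternatives run for them. The fixed block leaves no knockdown contrast. The count for RA in shLOXL2 cells was 4 as reported, 2 with all transcript clusters tested, 6 with either replicate block within construct (random 1675 and fixed 1624 of all genes, against 768 as reported), and 2 to 5 with single arrays left out. For RA in shCT cells it was 4 as reported, 7 without genes dimmer than the median (1133 of the 11090 genes left), 9 with a random replicate block within each construct (2047 of all genes), 7 with a fixed replicate block for each construct and number (1800, against 943 as reported), and 3 to 5 with single arrays left out. For RA on average it was 10 as reported, 6 with all transcript clusters, and 6 to 10 with single arrays left out. The random and the fixed block within construct gave 12 and 11 there (3871 and 3677 of all genes, against 2289 as reported). With the replicate number as a block over all 12 arrays the counts were 3, 4 and 8 for RA in shLOXL2 cells, in shCT cells and on average, with Foxp4 lost in shLOXL2 cells and Foxn3 and Foxo3 on average. Without the 4 arrays that stood apart, an alternative added after seeing the data like the fixed block, they were 3, 4 and 9. Foxp4 in shLOXL2 cells then had an adjusted p of 0.0546, and Foxn3 and Foxq1 on average 0.0561 and 0.0615. Foxa2, which was near 0, changed sign for RA in shLOXL2 cells (range with single arrays left out -0.12 to 0.11, and 0.0763 without the 4 arrays), in shCT cells (-0.000775 to 0.366) and on average (-0.0045 to 0.18). Fits of the compared groups alone exist for comparisons of 2 groups and not for the averages or the difference, which use all 12 arrays. The causes of these changes were not tested. Testing all clusters alters both the spread estimated by the fit and the number of features adjusted over, and the part of each was not separated.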
